A study of Mus musculus with 13 samples.

Results

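The response of brown fat to cold was followed in mice whose Stim1 and Stim2 genes were floxed (Stim1/2 fl/fl) and not deleted. Brown adipose tissue from 4 samples taken after 6 h at 4 °C (cold) was compared with that from 2 samples kept at room temperature (RT), all labelled as 1 batch. These are 6 of the 13 samples of the study, picked by the genotype and temperature in their labels. The other 7 samples carry the same floxed alleles with Adp-Cre (KO, 4 cold and 3 RT), a Cre driven by the adiponectin promoter, which acts in adipocytes and leaves both genes in other cell types. The control labels name no Cre, so Cre itself and the deletion cannot be told apart where the genotypes are compared. The KO libraries entered the fit as further groups. Age, sex, strain background and hour of collection are not in the labels, and the labels do not say that each sample is another animal. The p-values below therefore reflect the spread among these libraries, which may be technical.

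Brown fat makes heat by burning fuel in mitochondria that the uncoupling protein UCP1 has made leaky to protons. Cold reaches the tissue through sympathetic nerves: noradrenaline binds β-adrenergic receptors, adenylyl cyclase makes cAMP, and protein kinase A releases fatty acids and activates transcription factors such as CREB. Receptors coupled to inhibitory G proteins, among them those for adenosine, prostaglandin E2 and lactate, lower cAMP and oppose this signal. Within hours the tissue is known to raise Ucp1, Dio2 and Ppargc1a transcripts and to take up glucose and lipoprotein lipids.

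The 6 libraries held 1570684 to 2016178 counts each and detected 15506 to 17061 genes. Levels are given in CPM, a gene's counts relative to the scaled total of its library, which do not correct for differences between genes. Transcripts of mitochondrial DNA made up 9.43% to 13.4% of the counts. Of 10 brown adipocyte markers, 3 were called higher in the cold (Ucp1, Ppargc1a and Elovl3, all cold-induced genes described below), so their summed level, 17225 and 19344 CPM at RT and 24080 to 29497 CPM in the cold, is no measure of brown adipocyte content. The defining markers Ucp1, Cidea, Adipoq, Pparg, Plin1 and Fabp4 were present in every library. Of 10 epithelial and mesothelial markers, 6 were at 0 counts in all libraries, among them Msln, Upk3b and Krt8.

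The library RT 1 carried skeletal muscle RNA. The summed level of 34 muscle transcripts was 4256 CPM in RT 1, 146 CPM in RT 2, and 90.4, 115, 399 and 530.1 CPM in cold 1 to 4. For example the myosin heavy chain gene Myh4 stood at 628 and 4.82 CPM at RT and 1.15, 0, 53.3 and 64.9 CPM in the cold, and skeletal actin Acta1 at 388 and 4.82 CPM at RT and 4.61, 0, 21.1 and 35.3 CPM in the cold. None of the 34 transcripts was at 0 in all libraries. Of the 29 muscle genes that could be tested, 19 were called lower in the cold with both RT libraries, and 0 were lower without RT 1. This count was 29 without RT 2, 5 without cold 1 or without cold 2, 4 with control libraries alone, 3 with the replicate block and 1 with DESeq2. The log2 change of Acta1 was -3.75 with RT 1 and 1.59 without it, that of Ckm -3.71 and 3.45, that of Myh4 -3.46 and 2.56, and that of Tnnt3 -3.45 and 1.29. Of these Myh4 did not pass with both RT libraries (edgeR adjusted p = 0.0626) and passed without RT 2 (0.0133). Without RT 2 the changes of Acta1, Ckm and Tnnt3 were -4.71, -4.66 and -4.37, and without cold 4 they were -4.54, -4.48 and -4.43. Their calls were also lost without cold 1 or without cold 2, and that of Tnnt3 without cold 3 (edgeR adjusted p = 0.0521). RT 1 and RT 2 also differed in other genes, as described below. The first principal component, 54.1% of the variance, placed RT 1 at -64.9, RT 2 at -36.4 and the cold libraries between 10.6 and 37.0. Each comparison below is given with both RT libraries and, where the call changes, without RT 1, which leaves 1 RT library that is assumed to vary like the other groups. In bulk tissue, fewer cells of a type and less RNA per cell cannot be told apart.

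Of 11073 tested genes, 2793 (25.2%) were called at an adjusted p under 0.05 in edgeR's quasi-likelihood test, 1401 higher (12.7%) and 1392 lower (12.6%). These shares of higher and lower genes are the background for each list count below that uses both RT libraries. Scaling between libraries centres the changes (median log2 change -0.02), so the near-equal split is not a measurement of total RNA. Changes of at least 2-fold among called genes were more often downward, 508 higher (4.59%) and 873 lower (7.88%). In 40.4% of tested genes the cold and RT libraries did not overlap (19.8% higher and 20.6% lower in the cold), called or not, which is the background for each statement on overlap below. Without RT 1 the calls fell to 1067 of 11541 genes (9.25%), 529 higher (4.58%) and 538 lower (4.66%), and 976 genes (8.81%) were called in the same direction in both fits, 494 higher (4.46%) and 482 lower (4.35%). Without RT 2, 2449 genes (21.1%) were called and 2033 of the 2793 kept. The sign reversed without RT 1 for 29 called genes, all of them lower in the cold with RT 1, and 18 of these were muscle markers. RT 2 was above RT 1 in 958 of the 1401 higher genes and below it in 958 of the 1392 lower ones, on the side of the cold libraries.

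**Figure D1:**
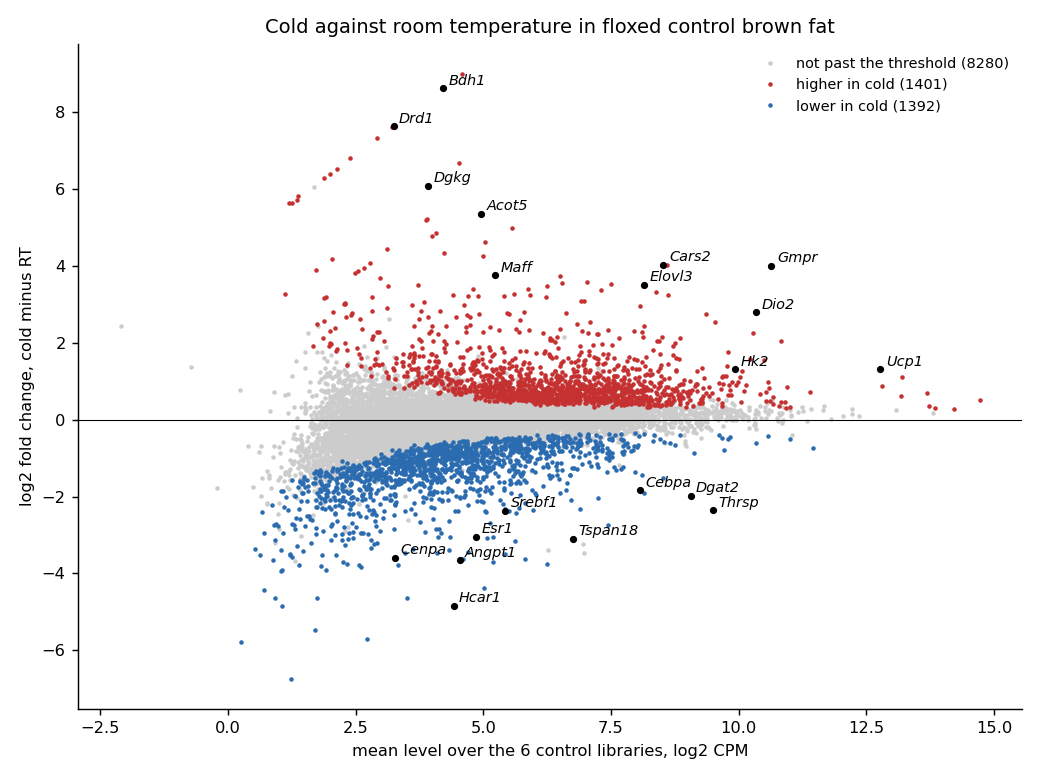
Each point is 1 of 11073 tested genes, with its mean level over the 6 control libraries in log2 CPM on the x axis and its log2 fold change, cold minus RT, on the y axis. Red points (1401) were called higher and blue points (1392) lower at an adjusted p under 0.05, grey points (8280) did not pass, and named genes are in black; fitted changes of genes at 0 counts in a group, such as Bdh1 and Drd1, are not bounds.

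**Figure D2:**
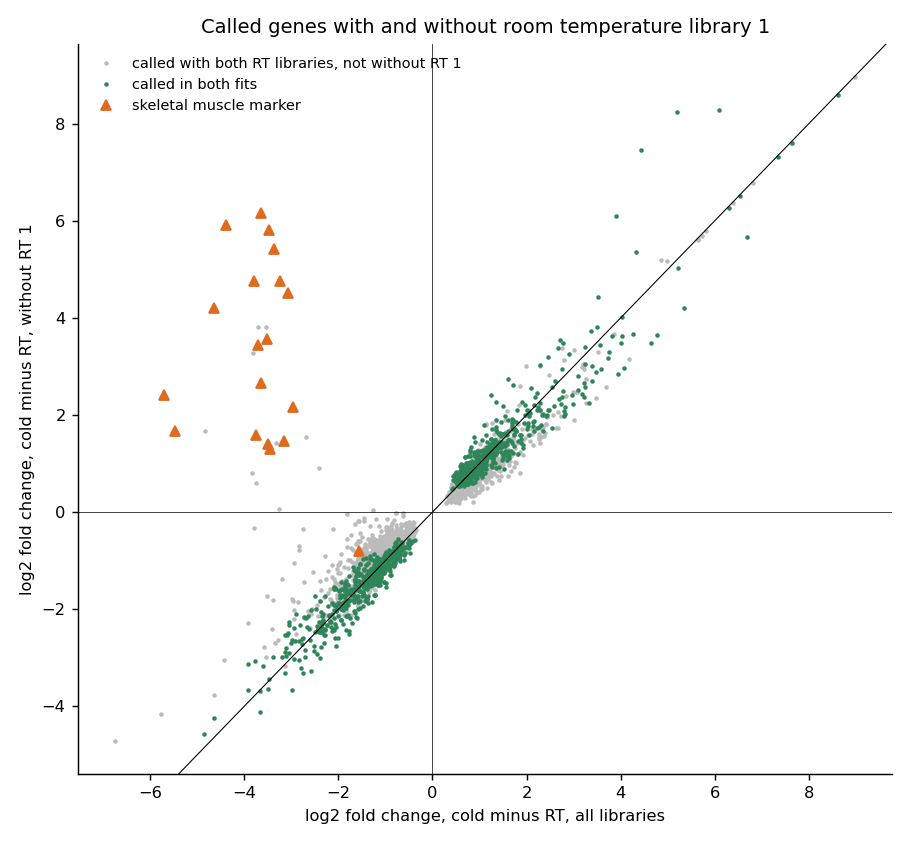
Genes called with all libraries, plotted by their log2 fold change with both RT libraries (x axis) and without RT 1 (y axis), with the line of equal values. Green points were called in both fits and grey points only with both RT libraries; orange triangles are skeletal muscle markers, most of which lie below 0 on the x axis and above 0 on the y axis.

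The floxed genes themselves did not pass the test. Stim1, a sensor of calcium in the endoplasmic reticulum (ER), stood at 149.9 and 126 CPM at RT and 129, 120.5, 134 and 114 CPM in the cold (log2 change -0.15 ± 0.16, SE; edgeR adjusted p = 0.521). Its relative Stim2 stood at 29.0 and 40.4 CPM at RT and 31.1, 32.1, 54.5 and 52.9 CPM in the cold (0.30 ± 0.28; edgeR adjusted p = 0.457). Both were thus measured in every control library, with RT and cold values that overlapped.

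Of the 33 tested genes of the thermogenic list, 11 rose and 4 fell, with a median log2 change of 0.23 beside -0.02 over all genes, and without RT 1 there were 8 higher and 2 lower. Ucp1, the proton leak itself, stood at 3187 and 3856 CPM at RT and 7504, 9365, 8992 and 9102 CPM in the cold. Both RT values lay well below all cold values, and the rise was 1.31 ± 0.15 (log2 change ± SE; edgeR adjusted p = 3.26e-05), or from 3521 ± 474 CPM (SD, n = 2) to 8741 ± 839 CPM (SD, n = 4). Elovl3, an elongase of very long fatty acids, stood at 42.3 and 28.9 CPM at RT and 528, 329, 387 and 393 CPM in the cold, a rise of 3.51 ± 0.34 (edgeR adjusted p = 5.36e-06). The groups were far apart, and no RT value came near a cold one. Gk, the glycerol kinase that lets brown adipocytes reuse glycerol, rose from 368 and 805 CPM at RT to between 2284 and 2579 CPM in the cold (2.06 ± 0.25 log2, and 2.74 without RT 2). The potassium channel gene Kcnk3 rose by 0.99 ± 0.15 log2 and Pank1, the first enzyme of coenzyme A synthesis, by 0.98 ± 0.17. Ebf2, a transcription factor of brown adipocyte identity, fell by 0.92 log2 (edgeR adjusted p = 0.000988).

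Dio2 encodes the deiodinase that makes active thyroid hormone inside brown adipocytes, and its promoter is a known target of cAMP. It stood at 69.0 and 457 CPM at RT and 1660.5, 1883, 1512 and 2189 CPM in the cold. All 4 cold values lay above both RT values, but RT 2 was several times above RT 1, and the log2 change of 2.79 ± 0.51 (edgeR adjusted p = 0.00102) was 1.98 without RT 1 and 4.73 without RT 2. Ppargc1a, the coactivator of mitochondrial genes, showed the same spread at RT, with 128 and 577 CPM at RT and 1557, 2677, 1114 and 1364 CPM in the cold. Its rise of 2.26 ± 0.56 (edgeR adjusted p = 0.00767) came to 1.54 and did not pass without RT 1 (adjusted p = 0.0958), and it was 3.72 without RT 2. The bases before the start of Dio2 are shown because they hold a cAMP response element: RefSeq, build GRCm38.p6, chr12:90739039-90739288, minus strand, the 250 bases before the annotated start, 5′ to 3′, with the element TGACGTCA in capitals, beginning 95 bases before the start.
Dio2: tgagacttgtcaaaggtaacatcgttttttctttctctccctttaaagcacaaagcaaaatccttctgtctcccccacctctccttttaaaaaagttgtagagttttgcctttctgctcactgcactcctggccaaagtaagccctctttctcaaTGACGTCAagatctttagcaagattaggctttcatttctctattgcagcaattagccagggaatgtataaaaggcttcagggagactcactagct
The same letters, searched on both strands, are in 508 of 32851 promoter windows of this length (1.55%). Of the 27 genes called higher in the thermogenic, CREB target and ER chaperone lists, 21 had a promoter window. Among the windows kept for listing, Dio2 was the only one to hold the element. The listing may not cover all 21 windows, so other genes among them may hold it too. A match describes the letters and does not show that the site was bound.

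**Figure D3:**
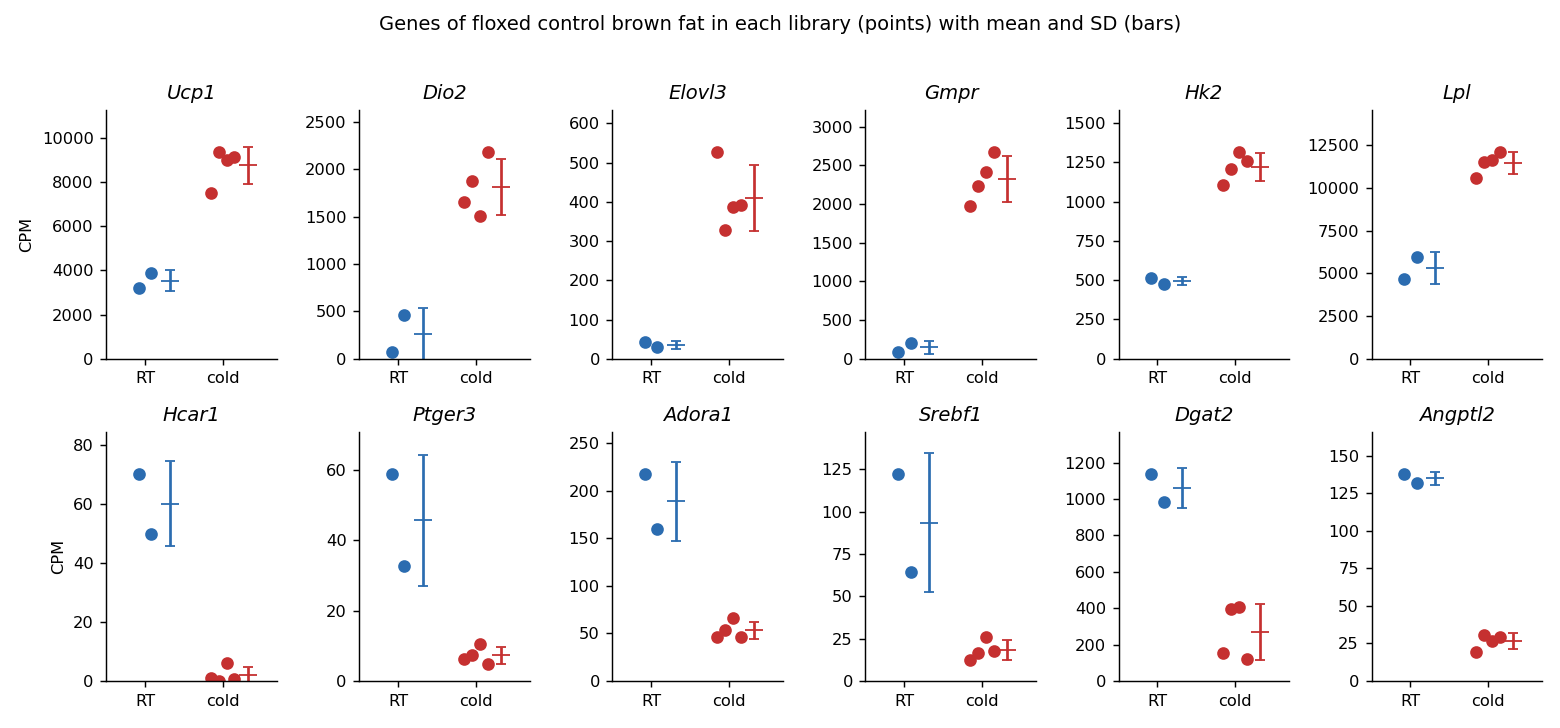
CPM of 12 genes on linear axes from 0, with 1 point per library (blue, 2 RT; red, 4 cold) and the mean with SD beside the points (the lower end of the Dio2 RT bar lies below 0 and is not drawn). The genes were picked among called ones, and in each of the 12 panels the cold points lie all above or all below the RT points.

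Genes of the β-adrenergic and cAMP pathway moved both ways: 7 of 31 tested rose and 7 fell (without RT 1, 7 and 1). At the receptor level, Adrb3, the main β-adrenergic receptor of rodent brown fat, stood at 264 and 243 CPM at RT and 179.7, 82.2, 181 and 104 CPM in the cold and was called lower (-0.89 ± 0.29; edgeR adjusted p = 0.0357). This call was lost without RT 1 (adjusted p = 0.174), without RT 2 (0.0778), without cold 2 (0.0787) and without cold 4 (0.0800). Adrb1 stood at 81.8 and 103.1 CPM at RT and 66.8, 63.6, 146 and 57.9 CPM in the cold and did not pass (-0.14 ± 0.33; edgeR adjusted p = 0.798). Below the receptor, the adenylyl cyclase gene Adcy3 rose from 86.0 and 133 CPM at RT to between 397 and 550.1 CPM in the cold (2.16 ± 0.19 log2; edgeR adjusted p = 3.93e-06). The phosphodiesterases Pde7b (2.40 ± 0.31) and Pde4d (1.49 ± 0.26), which break down cAMP, rose as well, so that an enzyme that makes cAMP and 2 that remove it were all higher. The kinase subunit Prkar1a, which holds protein kinase A inactive until cAMP binds, rose by 0.78 ± 0.13. Akap1, which anchors the kinase to mitochondria, fell by 1.31 log2 (edgeR adjusted p = 0.000179).

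In the list of receptors that oppose cAMP or answer to metabolites, 5 of 12 tested genes fell and 1 rose, with a median of -0.96; without RT 1 the counts were again 5 and 1. Hcar1, the lactate receptor of adipocytes, stood at 70.4 and 50.0 CPM at RT and 1.15, 0, 6.19 and 0.706 CPM in the cold. It was near 0 in 3 of the 4 cold libraries, a log2 change of -4.85 ± 0.49 (edgeR adjusted p = 7.17e-06), and -6.44 without cold 3. The prostaglandin E2 receptor gene Ptger3 stood at 58.9 and 32.5 CPM at RT and 6.34, 7.41, 10.5 and 4.94 CPM in the cold (-2.64 ± 0.30). The adenosine A1 receptor gene Adora1 stood at 218 and 159.7 CPM at RT and 46.7, 53.1, 66.3 and 46.6 CPM in the cold (-1.83 ± 0.23; edgeR adjusted p = 4.75e-05). For both, no cold value reached the lower RT value. Sucnr1, the succinate receptor, was low throughout, at 5.52 and 7.83 CPM at RT and 1.73, 1.24, 0.619 and 0.706 CPM in the cold (-2.52 ± 0.49; edgeR adjusted p = 0.00160). The exception was Npr3, the receptor that clears natriuretic peptides, which rose from 28.0 and 60.9 CPM at RT to between 124 and 361 CPM in the cold (2.22 ± 0.40, and 2.87 without RT 2; edgeR adjusted p = 0.000963).

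Of 27 immediate early genes 11 rose and 0 fell (median 0.87), and of 25 CREB targets 9 rose and 1 fell (median 1.101); without RT 1 the counts were 4 and 1, and 4 and 0, with medians of 0.49 and 0.42. Maff, a small Maf transcription factor, stood at 2.76 and 5.42 CPM at RT and 56.4, 53.8, 39.6 and 67.1 CPM in the cold, a rise of 3.75 ± 0.32 (edgeR adjusted p = 3.06e-06). The MAP kinase phosphatase Dusp1 stood at 52.9 and 118 CPM at RT and 397, 362, 287 and 469 CPM in the cold (2.16 ± 0.41, and 2.85 without RT 2). Its relative Dusp6 rose by 1.71 ± 0.28, and by 2.46 without RT 2. The repressor gene Bcl6 rose by 1.46 ± 0.26 and the salt-inducible kinase gene Sik3 by 1.101 ± 0.18, and all of these passed without RT 1. Other rapid targets of cAMP did not separate in that way. Nr4a1, a nuclear receptor induced within minutes by cAMP, stood at 23.5 and 188 CPM at RT and 147, 151, 105 and 179 CPM in the cold, so that RT 2 was above every cold library and RT 1 far below them. It did not pass (0.48 ± 0.52; edgeR adjusted p = 0.531), with a log2 change of -0.38 without RT 1 and 2.64 without RT 2. Nr4a3 had the same order, at 6.44 and 133 CPM at RT and 84.7, 132, 57.0 and 129.9 CPM in the cold (0.58 ± 0.66; adjusted p = 0.556, and -0.40 and 3.96 without RT 1 and RT 2). Sik1 stood at 7.82 and 33.7 CPM at RT and 77.2, 77.2, 47.1 and 73.4 CPM in the cold and passed with both RT libraries (1.79 ± 0.48; edgeR adjusted p = 0.0133) but not without RT 1 (1.02; adjusted p = 0.202), and it was 3.14 without RT 2. Cebpb (0.87 ± 0.17) and Tiparp (1.33 ± 0.30) likewise lost their calls without RT 1 (edgeR adjusted p = 0.0645 and 0.0692). Fos had 0 counts in both RT libraries and 22 over the cold ones, at least 4.40-fold higher against a floor of 3 counts over the group; its adjusted p of 0.0394 became 0.201 without RT 1, 0.106 without RT 2, 0.0715 without cold 2 and 0.0504 without KO RT 1. Fam107a, which encodes an actin-associated protein, had 2 counts at RT and 63 in the cold, a ratio of 18.9 (exact 95% counting interval 5.02 to 160).

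**Figure D4:**
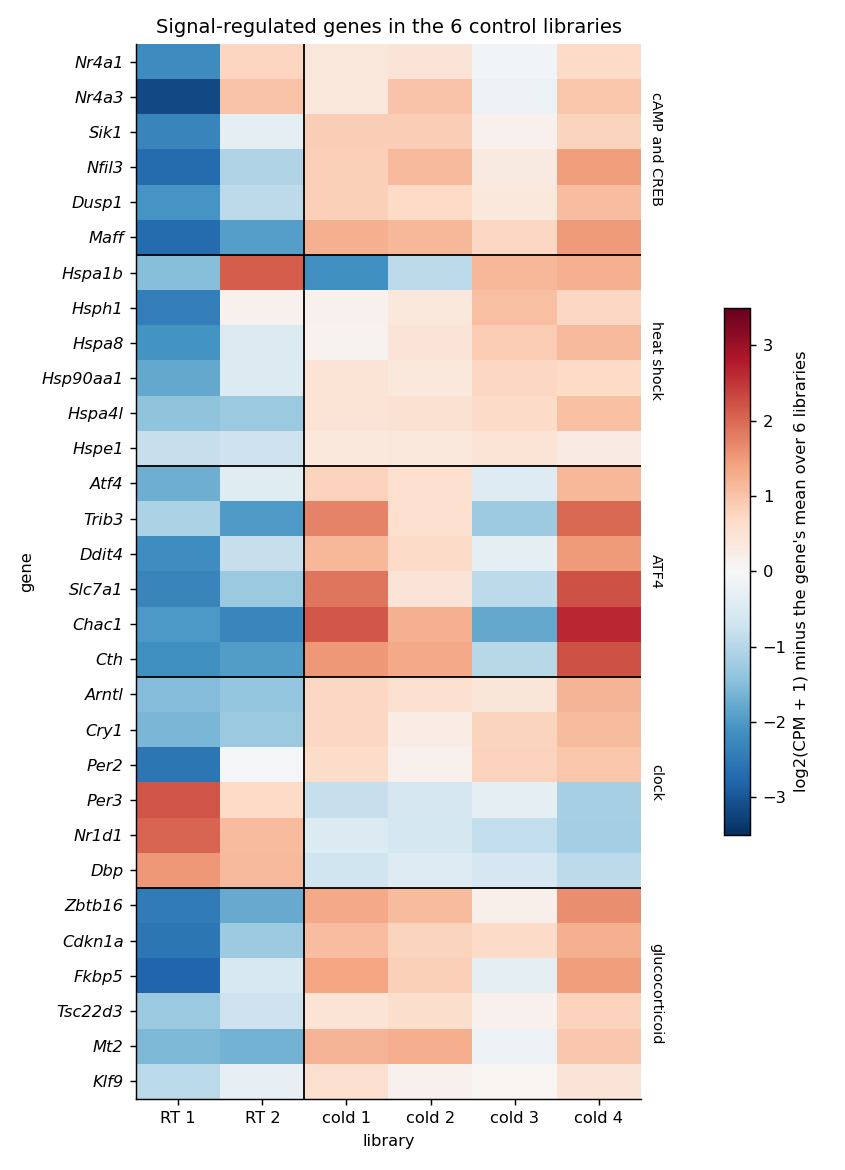
Heat map of 30 genes (rows, in 5 groups) in the 6 control libraries (columns); colour gives log2(CPM + 1) minus the gene's mean over the 6 libraries, red above and blue below. RT 2 lies above all cold libraries for Nr4a1, Nr4a3 and Hspa1b and between RT 1 and the cold libraries for Sik1, Nfil3, Dusp1, Hspa8 and Hsp90aa1, and cold 3 has the lowest cold value in each gene of the ATF4 group.

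ATF4 is a transcription factor that is translated when the integrated stress response is on, and it induces amino acid transporters and synthesis enzymes. Of 25 tested genes of its list, 15 rose and 0 fell (median 1.58); without RT 1, 3 rose and the median was 1.13. Atf4 stood at 114 and 280.2 CPM at RT and 661, 567, 276 and 834 CPM in the cold (1.58 ± 0.43; edgeR adjusted p = 0.0129). Cth, which makes cysteine, stood at 10.6 and 12.1 CPM at RT and 143, 127, 24.8 and 239 CPM in the cold (3.56 ± 0.74; edgeR adjusted p = 0.00258). Slc7a1, a transporter of cationic amino acids, stood at 4.60 and 10.2 CPM at RT and 99.6, 37.1, 13.6 and 128 CPM in the cold (3.26 ± 0.81, and 3.90 without RT 2). In all 3 genes cold 3 was the lowest cold library, and for Atf4 it lay just below RT 2. Cold 3 was also the lowest cold library, and below RT 1, for the pseudokinase gene Trib3, at 11.96 and 6.03 CPM at RT and 92.2, 40.8, 10.5 and 111 CPM in the cold (2.76 ± 0.75; edgeR adjusted p = 0.0130), and the lowest for Chac1, which degrades glutathione, with 3 counts at RT and 156 in the cold (ratio 31.2, exact 95% counting interval 10.5 to 153). Fgf21, a hormone induced by both CREB and ATF4, had 0 counts at RT and 227 in the cold, at least 45.4-fold higher, with 55.9, 19.2, 1.86 and 67.8 CPM in cold 1 to 4. Atf5 rose by 1.26 ± 0.24 and, with Cth, passed without RT 1 (adjusted p = 0.0287 and 0.0425). Calls lost without RT 1 were those of Atf4 (edgeR adjusted p = 0.181), Slc7a1 (0.103), Chac1 (0.0732), Fgf21 (0.0791), Slc3a2 (0.0511) and Ddit4 (0.0969), and without RT 2 the changes of Atf4 (2.37 log2) and Ddit4 (2.30 against 3.15) were larger; Trib3 was lost without RT 1 (0.0654, log2 change 3.37) and without RT 2 (0.0749). Ddit3, which encodes the pro-apoptotic factor CHOP, stood at 24.4 and 33.1 CPM at RT and 23.0, 25.9, 6.81 and 50.1 CPM in the cold and did not pass (-0.13 ± 0.57; edgeR adjusted p = 0.893).

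Among 19 tested amino acid transporters 8 rose and 3 fell, and without RT 1 there were 4 and 2. Slc7a8, a carrier of neutral amino acids, stood at 8.28 and 24.1 CPM at RT and 233, 174, 83.6 and 262 CPM in the cold, a rise of 3.59 ± 0.47 (edgeR adjusted p = 7.39e-05; 2.95 without RT 1 and 4.51 without RT 2). Slc43a2, another neutral amino acid carrier, rose by 1.60 ± 0.19. Slc3a2, the shared heavy chain of several carriers, rose by 2.27 ± 0.47 with both RT libraries, 1.61 without RT 1 and 3.41 without RT 2. The opposite was seen for the glutamine carrier gene Slc1a5, which fell from 621 and 482 CPM at RT to between 130.1 and 174 CPM in the cold (-1.91 ± 0.17 log2; edgeR adjusted p = 3.93e-06).

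Of 38 tested genes of the ER chaperone and unfolded protein list, 7 rose and 0 fell (median 0.20), and without RT 1 only Tex264, a receptor for ER-phagy (0.73 ± 0.17 log2), was called (edgeR adjusted p = 0.0303). In KO brown fat, where 9.43% of all genes rose and 9.45% fell, 21 of the same 38 rose and the median was 0.62, and the difference between the responses was called for 0 of them. Hspa5, which encodes the chaperone BiP, stood at 553 and 794 CPM at RT and 695, 869, 768 and 1491 CPM in the cold and did not pass (0.50 ± 0.28; edgeR adjusted p = 0.208). Calr, the calcium-binding chaperone calreticulin, stood at 128 and 154 CPM at RT and 154, 172, 162 and 198 CPM in the cold and did not pass either (0.28 ± 0.17; edgeR adjusted p = 0.224). Canx, its membrane-bound relative calnexin, rose from 218 and 239 CPM at RT to between 310.4 and 369.8 CPM in the cold (0.59 ± 0.13; edgeR adjusted p = 0.00357, and 0.0675 without RT 1). Selenos (0.72 ± 0.17) and Dnajb9 (1.27 ± 0.35), which act in ER-associated degradation and as a BiP cofactor, rose with both RT libraries and did not pass without RT 1 (edgeR adjusted p = 0.0631 and 0.182). The bases before the start of Canx are shown because they hold the ER stress element, the site of ATF6 and NF-Y: RefSeq, build GRCm38.p6, chr11:50325674-50325923, minus strand, 5′ to 3′, with the element in capitals, beginning 145 bases before the start.
Canx: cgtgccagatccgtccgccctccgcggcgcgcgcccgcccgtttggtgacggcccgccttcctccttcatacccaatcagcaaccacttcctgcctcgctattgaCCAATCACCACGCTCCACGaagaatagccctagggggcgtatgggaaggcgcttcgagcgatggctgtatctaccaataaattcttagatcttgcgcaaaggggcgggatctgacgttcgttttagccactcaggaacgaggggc
The element, on either strand, is in 37 of the 32851 windows (0.113%). Canx was the only gene with it among the windows kept for listing, which may not cover all 21.

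Chaperones of the cytosol and the mitochondria were often higher: 20 of 37 tested heat shock genes were higher and 0 lower (median 0.56), and without RT 1, 10 were higher and 2 lower. Hspa4l, a nucleotide exchange factor of the HSP110 family, stood at 108 and 118 CPM at RT and 400.3, 415, 455 and 597 CPM in the cold. The RT values were close together and far below all cold values, a rise of 2.05 ± 0.21 (edgeR adjusted p = 9.91e-06). Hspe1, the small subunit of the mitochondrial chaperonin, stood at 450.2 and 475 CPM at RT and 1009, 1021, 1089 and 949 CPM in the cold (1.14 ± 0.16; edgeR adjusted p = 0.000113). Smaller rises with little spread were those of Hspa4 (0.90 ± 0.12) and of the cytosolic chaperonin subunits Cct2 (0.92 ± 0.14) and Cct3 (0.90 ± 0.16). In 4 other genes RT 2 was well above RT 1. Hsp90aa1 stood at 294 and 726 CPM at RT and 1423, 1317, 1702 and 1671 CPM in the cold (1.59 ± 0.30, and 2.39 without RT 2), and Hspa8 at 60.2 and 181 CPM at RT and 282, 353, 478 and 565 CPM in the cold (1.81 ± 0.35, 1.202 without RT 1 and 2.81 without RT 2). Hsph1 stood at 23.0 and 144 CPM at RT and 142, 165, 266 and 214 CPM in the cold and did not pass (1.26 ± 0.52; edgeR adjusted p = 0.0861), but it passed without RT 2 (3.10; adjusted p = 0.00132) and came to 0.44 without RT 1. Hspa1b, the stress-inducible HSP70, was highest in RT 2, at 5.06 and 73.5 CPM at RT and 2.88, 8.03, 37.2 and 39.5 CPM in the cold, and changed by -0.82 ± 0.78 (edgeR adjusted p = 0.474), -1.78 without RT 1 and 2.08 without RT 2. Hspa1b shares nearly all of its sequence with its neighbour Hspa1a, so its counts depend on how such tags were assigned.

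For the proteasome, which degrades proteins, 16 of 37 tested subunit and regulator genes rose and 0 fell (median 0.41), and 3 rose without RT 1, where the median was 0.49. Psmd12 rose from 79.5 and 89.2 CPM at RT to between 122 and 164 CPM in the cold (0.79 ± 0.15) and Psmc2 from 75.4 and 82.6 CPM at RT to between 120.2 and 186 CPM in the cold (0.86 ± 0.18); both passed without RT 1 (edgeR adjusted p = 0.0357 and 0.0424). Nfe2l1, a transcription factor of proteasome genes, did not pass (-0.09 ± 0.14; edgeR adjusted p = 0.681). Of 20 genes of ribosome assembly, 10 rose and 1 fell (median 0.73; 2 and 0 without RT 1), among them Npm1 (0.79 ± 0.16) and Nop14 (0.90 ± 0.19). The cytosolic ribosomal proteins themselves had 2 of 34 genes higher and 0 lower, a share below that of all genes.

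In the list of glucose uptake and glycolysis 6 of 23 genes rose and 3 fell (5 and 1 without RT 1). Hk2, the insulin- and cAMP-regulated hexokinase, stood at 511 and 477 CPM at RT and 1106, 1208, 1318 and 1258 CPM in the cold, with the groups far apart and a rise of 1.31 ± 0.12 (edgeR adjusted p = 5.36e-06). Pfkp, a phosphofructokinase, stood at 56.6 and 53.6 CPM at RT and 229, 206, 225 and 197 CPM in the cold (1.96 ± 0.19; edgeR adjusted p = 5.36e-06), and Hk1 rose by 1.15 ± 0.25. Trarg1, which regulates traffic of the insulin-responsive glucose transporter, fell from 111 and 108 CPM at RT to between 12.97 and 28.8 CPM in the cold (-2.43 ± 0.32 log2; edgeR adjusted p = 7.67e-05). Of 20 glycogen genes 1 rose and 5 fell (median -0.38), and 3 fell without RT 1. These 3 were the phosphorylase Pygb, which fell from 50.1 and 77.7 CPM at RT to between 12.1 and 17.9 CPM in the cold (-2.12 ± 0.21), the glycogen phosphatase Epm2a (-1.88 ± 0.26) and the phosphatase targeting subunit Ppp1r3d (-1.06 ± 0.24).

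Of 31 genes of lipogenesis and triglyceride synthesis 10 fell and 5 rose (median -0.39; 3 and 2 without RT 1). Srebf1, the master regulator of fatty acid synthesis, stood at 122 and 64.5 CPM at RT and 12.1, 16.7, 26.0 and 17.6 CPM in the cold, a log2 change of -2.38 ± 0.28 (edgeR adjusted p = 3.59e-05). Thrsp, a lipogenic regulator, stood at 1855 and 1263 CPM at RT and 226, 474, 359.9 and 154 CPM in the cold (-2.36 ± 0.30; edgeR adjusted p = 5.93e-05). Dgat2, which completes triglycerides, stood at 1139 and 985 CPM at RT and 156, 395, 408 and 119 CPM in the cold (-1.98 ± 0.36; edgeR adjusted p = 0.00107). In these 3 genes no cold value reached an RT value. Gpam, which starts glycerolipid synthesis, moved the other way (1.104 ± 0.14), and the desaturase gene Scd1 did not pass (0.27 ± 0.18; edgeR adjusted p = 0.287). Among 21 lipid uptake genes 5 rose and 2 fell (3 and 2 without RT 1). Lpl, the lipase that frees fatty acids from lipoproteins, stood at 4667 and 5975 CPM at RT and 10589.6, 11505, 11665 and 12131 CPM in the cold, with no overlap and a rise of 1.11 ± 0.11 (edgeR adjusted p = 7.17e-06). Gpihbp1, which carries the lipase across the capillary wall, rose by 1.08 ± 0.21 (adjusted p = 0.00149, and 0.0511 without RT 1), and the fatty acid transporter gene Slc27a2 by 1.04 ± 0.18. Pcsk6, a proprotein convertase that can cleave lipases, stood at 47.8 and 55.4 CPM at RT and 135, 155, 196 and 221 CPM in the cold (1.78 ± 0.19; edgeR adjusted p = 1.17e-05). Scarb1, the HDL receptor, fell from 83.2 and 79.5 CPM at RT to between 17.3 and 34.7 CPM in the cold (-1.83 ± 0.21 log2). Of 24 genes of lipolysis and the lipid droplet 4 rose and 4 fell (16.7% each, near the 12.7% and 12.6% of all genes), and 1 and 1 did without RT 1. Plin2, a droplet coat protein, rose by 1.54 ± 0.27, while the hormone-sensitive lipase gene Lipe fell from 573 and 563 CPM at RT to between 301 and 449 CPM in the cold (-0.65 ± 0.13; edgeR adjusted p = 0.00255) and the triglyceride lipase gene Pnpla2 did not pass (0.12 ± 0.11; adjusted p = 0.463).

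In fatty acid and ketone oxidation, 7 of 31 genes rose and 2 fell (2 and 1 without RT 1). Bdh1, which interconverts ketone bodies in mitochondria, had 0 counts in both RT libraries and 16.1, 35.2, 32.8 and 27.5 CPM in the cold, at least 35.4-fold higher against a floor of 3 counts over the group (edgeR adjusted p = 5.25e-05). Acot5, a peroxisomal acyl-CoA thioesterase, stood at 0 and 2.41 CPM at RT and 27.6, 63.0, 35.9 and 57.2 CPM in the cold (5.35 ± 0.69, 4.20 without RT 1 and 9.34 without RT 2). Other peroxisomal enzymes moved both ways: Ehhadh rose (1.71 ± 0.40), losing its call without RT 1 (edgeR adjusted p = 0.0901), and the thiolase gene Acaa1b fell by 1.56 log2. Few genes of the respiratory chain passed. Of 59 nuclear-encoded subunit genes 5 rose and 1 fell, below the share of all genes, with 49 of 59 above 0 and a median of 0.19. Over all tested genes 5412 of 11073 were above 0. Without RT 1 the median of the list was 0.26, and fewer of its genes were called. Sdhb, the iron-sulfur subunit of succinate dehydrogenase, had the smallest p of the list and rose from 426 and 603 CPM at RT to between 858 and 1117 CPM in the cold (0.93 ± 0.15; edgeR adjusted p = 0.000478), while its partner Sdha did not pass (0.19 ± 0.11; adjusted p = 0.225). Of 10 tested transcripts of mitochondrial DNA 8 rose (median 0.43), but 0 did without RT 1. The count was 5 with RLE scaling, 4 with the stricter filter, 3 with control libraries alone, with the replicate block or with the muscle covariate, and 3 to 5 when cold 2, cold 4 or any 1 of the 7 KO libraries was left out. For mt-Co1, the values were 3669 and 5506 CPM at RT and 6697, 8746, 8279 and 10118 CPM in the cold (0.88 ± 0.17; edgeR adjusted p = 0.00156, and 0.0502 without RT 1), and for mt-Nd5 the change was 0.61 ± 0.14 (0.0906 without RT 1).

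Clock genes moved both ways: of 21 tested, 7 rose and 6 fell, and 3 and 2 without RT 1. The activator gene Arntl, whose product drives the clock's E-box genes, stood at 19.3 and 21.7 CPM at RT and 95.03, 85.3, 76.8 and 133 CPM in the cold (2.25 ± 0.40; edgeR adjusted p = 0.000934). Cry1, a repressor of that activator, stood at 12.9 and 16.3 CPM at RT and 69.7, 50.0, 71.9 and 91.1 CPM in the cold (2.28 ± 0.30; edgeR adjusted p = 8.09e-05), and Nfil3 at 5.06 and 18.1 CPM at RT and 69.7, 84.6, 47.7 and 108 CPM in the cold (2.80 ± 0.45, 2.09 without RT 1 and 3.93 without RT 2). All cold values of these 3 genes exceeded the RT values. Nr1d1, a repressor of Arntl, fell from 47.8 and 24.7 CPM at RT to between 4.24 and 7.49 CPM in the cold (-2.58 ± 0.43 log2, and -1.98 with muscle RNA as a term in the fit; edgeR adjusted p = 0.000476). The output genes Dbp (-2.09 ± 0.45) and Hlf (-0.89 ± 0.16) fell as well, Dbp with an edgeR adjusted p of 0.05002 without RT 1. Per3 stood at 146 and 51.2 CPM at RT and 17.3, 20.4, 24.8 and 13.4 CPM in the cold (-2.39 ± 0.42, and -1.43 with an adjusted p of 0.0678 without RT 1). Per2 stood at 5.98 and 37.4 CPM at RT and 62.2, 43.9, 68.8 and 77.6 CPM in the cold and was called higher (1.61 ± 0.51; edgeR adjusted p = 0.0308), 0.75 and not past the threshold without RT 1 (adjusted p = 0.339) and 3.39 without RT 2; the call was also lost without cold 1 (0.0524) and without cold 4 (0.0570). Since the labels give no hour of collection, a difference in hour between the RT and cold groups and an effect of cold on these genes cannot be told apart.

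Of 18 tested glucocorticoid-responsive genes, 11 rose and 1 fell (median 1.06; 5 and 1 without RT 1). Zbtb16 stood at 5.98 and 10.2 CPM at RT and 94.5, 81.6, 42.7 and 117 CPM in the cold, a rise of 3.40 ± 0.38 (edgeR adjusted p = 1.92e-05). Cdkn1a, the cell cycle inhibitor p21, stood at 81.4 and 195 CPM at RT and 996, 812, 752 and 1111 CPM in the cold (2.74 ± 0.32, and 3.51 without RT 2). The metallothionein gene Mt2 stood at 182 and 172 CPM at RT and 1250.4, 1322, 486 and 1059.5 CPM in the cold (2.54 ± 0.36; edgeR adjusted p = 0.000145). Cold values were above RT values in all 3, and cold 3 was the lowest of the cold libraries. Tsc22d3 (1.54 ± 0.26) and Klf9 (0.91 ± 0.17), direct targets of the glucocorticoid receptor, rose and passed without RT 1. Fkbp5, a cochaperone of that receptor, stood at 8.28 and 41.6 CPM at RT and 162, 111, 48.9 and 172 CPM in the cold (2.37 ± 0.50), and came to 1.56 without RT 1 (edgeR adjusted p = 0.0514) and 3.90 without RT 2.

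Regulators of adipocyte identity and insulin signalling split. Of 28 identity genes 7 rose and 5 fell (4 and 5 without RT 1). Cebpa, a master regulator of fat cell differentiation, stood at 570.2 and 469 CPM at RT and 105, 172, 219 and 86.1 CPM in the cold, a log2 change of -1.83 ± 0.28 (edgeR adjusted p = 0.000224), whereas Pparg (0.28 ± 0.16; adjusted p = 0.221) and Adipoq (-0.24 ± 0.12; adjusted p = 0.178) did not pass. Klf15 rose by 1.45 ± 0.27. The caveolar coat gene Cavin1 (-0.88 ± 0.16) and the galectin gene Lgals12 (-1.65 ± 0.24) fell. Among 27 insulin signalling genes 5 rose and 5 fell (18.5% each, beside 12.7% and 12.6% of all tested genes). Their median log2 change was -0.03. Without RT 1 it was -0.11, and fewer of these genes were called higher, so the even split rests on RT 1. Pik3r1, the regulatory subunit of phosphoinositide 3-kinase, fell from 239 and 190.4 CPM at RT to between 42.0 and 58.2 CPM in the cold (-2.08 ± 0.25; edgeR adjusted p = 4.12e-05), and the kinase gene Akt2 from 269 and 262 CPM at RT to between 116 and 179 CPM in the cold (-0.88 ± 0.15).

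Of 23 genes of calcium stores and membrane contacts, the machinery that STIM proteins work with, 5 rose (21.7%) and 4 fell (17.4%). Over all tested genes these shares were 12.7% and 12.6%. The list's median log2 change was 0.20. Without RT 1 it was 0.11, and fewer of its genes were called in each direction. Atp2a2, the pump that fills the ER store, stood at 183 and 262 CPM at RT and 467, 599, 549 and 555 CPM in the cold, a rise of 1.29 ± 0.16 (edgeR adjusted p = 5.67e-05). Itpr2, a channel that empties it, stood at 439 and 412 CPM at RT and 187, 138, 168 and 166 CPM in the cold, a log2 change of -1.37 ± 0.13 (edgeR adjusted p = 5.36e-06). Pump and channel thus moved in opposite directions, each with no overlap between groups. The tether gene Esyt1 fell by 0.94 log2 and the cation channel gene Trpc1 rose by 1.58 ± 0.31.

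Of 21 secreted factors 8 rose and 3 fell (median 0.77; 3 and 2 without RT 1). Angptl2, a secreted angiopoietin-like protein, stood at 138 and 132 CPM at RT and 19.0, 30.9, 26.6 and 28.9 CPM in the cold, a log2 change of -2.36 ± 0.17 (edgeR adjusted p = 8.20e-07). Igf1 fell from 82.8 and 102 CPM at RT to between 39.5 and 48.4 CPM in the cold (-1.08 ± 0.24). Fgf9 stood at 2.76 and 6.63 CPM at RT and 12.7, 63.6, 48.3 and 45.2 CPM in the cold (3.21 ± 0.58, and 3.92 without RT 2), with cold 1 the lowest of the cold libraries, and Edn1, the vasoconstrictor endothelin, rose by 1.62 ± 0.39. Lep, the leptin gene, had 37 counts over the RT libraries and 2 over the cold ones, a ratio of 30.8 (exact 95% counting interval 7.95 to 264). Interferon response genes had 8 of 15 lower and 0 higher, with a median of -1.09, and 7 lower without RT 1. Gbp3 fell from 30.3 and 28.9 CPM at RT to between 5.76 and 8.65 CPM in the cold (-2.03 ± 0.28; edgeR adjusted p = 9.75e-05) and Rsad2 from 123 and 83.2 CPM at RT to between 19.2 and 52.9 CPM in the cold (-1.63 ± 0.28). Irf1 (-1.17 ± 0.19), Rtp4 (-1.36 ± 0.25) and Ifitm3 (-0.83 ± 0.16) fell too, while Isg15 did not pass (-0.40 ± 0.29; edgeR adjusted p = 0.336).

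**Figure D5:**
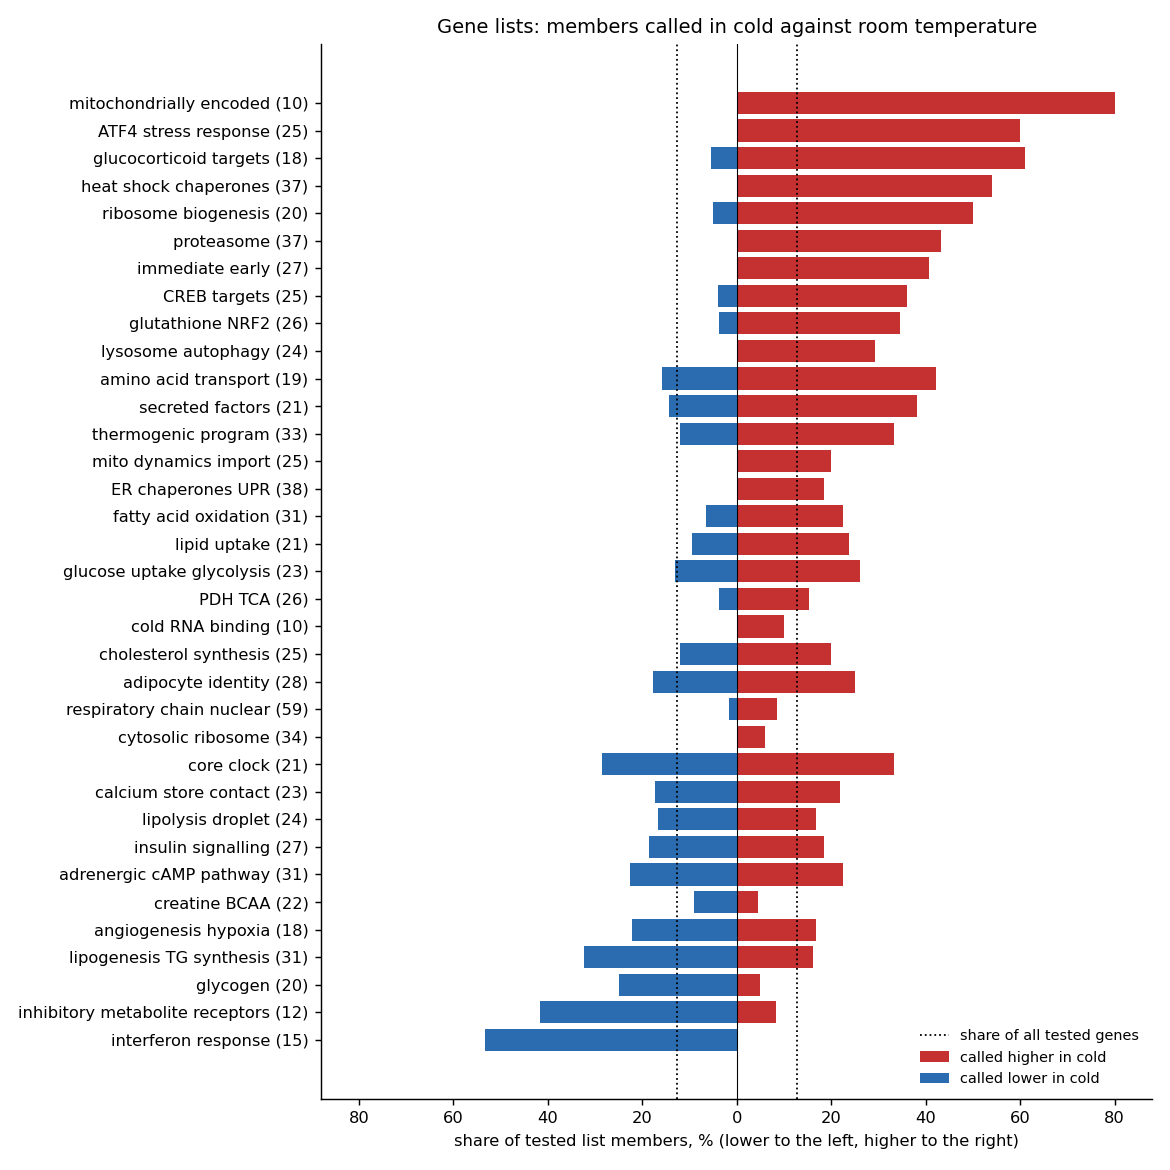
Share of each list's tested members called higher (red, to the right) or lower (blue, to the left) in the cold, with the number tested in parentheses. Dotted lines mark the shares over all tested genes (12.7% higher and 12.6% lower); ATF4, glucocorticoid and heat shock lists reach far to the right, as does the mitochondrially encoded list, whose count of 8 was 5 with RLE scaling and 0 without RT 1, and interferon and inhibitory receptor lists to the left.

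The largest changes that held without RT 1 included genes outside these lists. Among the 15 largest rises, Gmpr, the reductase that returns GMP to the purine pool, stood at 85.5 and 207 CPM at RT and 1977, 2229.8, 2409.8 and 2679.6 CPM in the cold (4.00 ± 0.39, and 4.78 without RT 2; edgeR adjusted p = 5.36e-06). Cars2, the mitochondrial cysteinyl-tRNA synthetase, stood at 32.2 and 33.1 CPM at RT and 418, 428, 433 and 871 CPM in the cold (4.04 ± 0.43; edgeR adjusted p = 1.24e-05). Socs2, a brake on growth hormone signalling, stood at 24.4 and 45.2 CPM at RT and 492, 589, 389 and 773 CPM in the cold (4.03 ± 0.36; edgeR adjusted p = 3.93e-06). These genes were chosen for large changes without overlap, so the gap between their groups is given by the choice. Other genes went from almost no counts to a clear level. Drd1, the dopamine D1 receptor, had 0 counts at RT and 88 in the cold, at least 17.6-fold higher. Dgkg, a diacylglycerol kinase, had 1 and 142 (ratio 85.3, exact 95% counting interval 15.1 to 3391). Lrrc52 had 3 and 150 (ratio 30.02, interval 10.1 to 147). Ttpa, the vitamin E transfer protein, and Smim41 each had 2 and 138 (ratio 41.4, interval 11.3 to 345.5), with Ttpa in cold 3 at only 1.86 CPM. The estrogen-related receptor gene Esrrb had 2 and 53 (ratio 15.9, interval 4.19 to 135). Cend1 rose by 4.33 ± 0.55 (5.35 without RT 1), and the kinase gene Plk3 by 4.27 ± 0.76 (3.66 without RT 1 and 5.03 without RT 2).

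Among the 15 largest falls, Angpt1, the ligand that stabilises vessels through Tie2, stood at 58.9 and 61.5 CPM at RT and 4.61, 4.32, 4.96 and 4.94 CPM in the cold, a log2 change of -3.66 ± 0.30 (edgeR adjusted p = 1.83e-06). The tetraspanin gene Tspan18 stood at 287 and 237 CPM at RT and 18.4, 37.1, 51.4 and 14.1 CPM in the cold (-3.11 ± 0.32; edgeR adjusted p = 1.03e-05). Ano1, a calcium-activated chloride channel, fell from 63.0 and 38.6 CPM at RT to between 2.12 and 6.34 CPM in the cold (-3.39 ± 0.42), and P2rx5, an ATP-gated channel used as a marker of brown fat, from 108 and 56.6 CPM at RT to between 8.03 and 12.4 CPM in the cold (-3.08 ± 0.27). Esr1, the estrogen receptor, fell from 77.2 and 63.9 CPM at RT to between 4.61 and 15.4 CPM in the cold (-3.05 ± 0.29). Cenpa, the histone variant of centromeres, fell from 31.3 and 18.7 CPM at RT to between 0.706 and 2.48 CPM in the cold (-3.59 ± 0.40). The summed level of 20 cell cycle markers, Cenpa included, was 79.1 and 105 CPM at RT and 30.4 to 43.1 CPM in the cold, with 1 of 3 tested genes lower; Top2a, a marker of dividing cells, had 10 and 20 counts at RT and 7, 4, 1 and 3 in the cold, and Mki67 had at most 3.62 CPM. Further falls of this size were those of the AMP deaminase gene Ampd2 (-3.05 ± 0.33, -2.33 without RT 1), the lysosomal transporter gene Mfsd12 (-3.14 ± 0.37), the corepressor gene Rcor2 (-3.10 ± 0.50), Nav2 (-3.06 ± 0.33), Klhdc7a (-3.04 ± 0.39, -2.26 without RT 1 and -3.68 without cold 3), Gprc5c (-2.94 ± 0.48), Caprin2 (-2.94 ± 0.47) and Limch1 (-2.92 ± 0.27).

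Markers of other cells of the tissue moved both ways. The summed endothelial level was 1842 and 2196 CPM at RT and 2222 to 2983 CPM in the cold, with 7 of 22 genes higher and 3 lower (2 and 1 without RT 1). Pecam1 rose by 0.83 ± 0.20 (edgeR adjusted p = 0.0542 without RT 1) and the arterial factor gene Sox17 by 1.78 ± 0.38, while the nitric oxide synthase gene Nos3 fell by 1.12 log2. Of 14 tested mural cell markers 1 rose, 3 fell and 10 did not pass. Their summed level was 988 and 1108 CPM at RT and 1018 to 1181 CPM in the cold. Cspg4 (-2.20 ± 0.26) and Mcam (-1.52 ± 0.20) fell and the contractile kinase gene Mylk rose (1.503 ± 0.20). The markers Acta2, Myh11, Tagln and Rgs5 did not pass (edgeR adjusted p = 0.285, 0.502, 0.268 and 0.851). Macrophage markers summed to 244 and 369 CPM at RT and 175 to 459.7 CPM in the cold, and of 17 tested 2 rose and 3 fell. Lyve1 rose (2.10 ± 0.46). Cx3cr1 fell (-3.01 ± 0.58, and -3.93 without cold 3), as did Ccr2 (-1.37 ± 0.30, but only -0.67 without RT 2). Adgre1, Mrc1 and Csf1r did not pass (edgeR adjusted p = 0.519, 0.796 and 0.346). The fibroblast list had a summed level of 2914 and 2929 CPM at RT and 2786 to 3970 CPM in the cold, and of 25 tested genes 4 rose and 1 fell. Its basement membrane genes Col4a1 (1.02 ± 0.19) and Col4a2 (1.03 ± 0.19) rose and Lama4 fell (-1.57 ± 0.20). Col1a1, Col3a1, Pdgfra and Dcn did not pass (edgeR adjusted p = 0.541, 0.486, 0.984 and 0.561). Granulocyte and mast cell markers summed to 60.2 and 22.9 CPM at RT and 10.4 to 19.8 CPM in the cold, and the 3 that could be tested fell (1 without RT 1). Among them Kit fell by 2.90 log2 (-2.09 without RT 1), while the mast cell marker Cpa3 had 2 counts in each RT library and 3, 4, 2 and 2 in the cold ones. Lymphocyte markers summed to 21.2 and 81.4 CPM at RT and 11.8 to 24.8 CPM in the cold, with 0 of 2 tested genes called. Erythrocyte markers summed to 1088 and 2546 CPM at RT and 1345 to 2872 CPM in the cold, with 0 of 6 called. RT 2 was the higher RT library for both lists, unlike for granulocyte and mast cell markers. It is the only RT library in the fits without RT 1. The part of all these cells in the results above was not tested.

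The KO response used its own RT libraries. Of the 2793 genes called in control, 2681 had the same sign in KO and 1434 were called there in the same direction, and 0 were called in the opposite one; KO had 2090 calls in all (18.9%). The difference between the responses was itself called for 2 genes (0.0181%), with 913 at an unadjusted p under 0.05 and 25 called by DESeq2. Hspa4l rose by 2.05 ± 0.21 in control and changed by 0.11 ± 0.18 in KO (difference 1.94 ± 0.27; edgeR adjusted p = 0.0210). Pcsk6 rose by 1.78 ± 0.19 in control and changed by 0.13 ± 0.17 in KO (difference 1.65 ± 0.25; edgeR adjusted p = 0.0269). Neither difference was called when RT 1, RT 2, KO RT 3, KO cold 1 or KO cold 2 was left out, and that of Pcsk6 was also lost without KO RT 1, KO RT 2, KO cold 3 or KO cold 4. The next smallest p-values, which did not pass, included those of Lama4 (difference -1.54 ± 0.26; adjusted p = 0.0799), Hk2 (0.87 ± 0.16; 0.108), Marcks (-0.90 ± 0.17; 0.131), Fam117a (1.90 ± 0.37; 0.152) and the zinc transporter gene Slc39a14 (1.96 ± 0.39; 0.152). For Ucp1 the KO rise was 1.06 ± 0.13 (difference adjusted p = 0.802).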

How the data were processed

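Brown adipose tissue RNA was sequenced as QuantSeq 3′ libraries (1 tag near the 3′ end of each transcript), per the labels' protocols. The deposited table holds raw counts per gene, unscaled by the authors. Per the submitters' processing notes, STAR 2.7.10b and HTSeq 0.12.3 were used, as were Trim Galore 0.6.7 and UMI-tools 1.1.2, with build GRCm39 and no roles given. Whether counts were collapsed by molecular identifier or used strand is not given in the sources used here; overlapping and near-identical genes are uncertain for that reason. Of 55632 lines, 275 repeated an identifier, which left 55357.

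Counts were fitted in R 4.3.3 with edgeR 4.0.16 (TMM scaling, filterByExpr with a minimum count of 10, quasi-likelihood test, 2-sided), with 1 coefficient for each of 4 groups over all 13 libraries. Genes were called at a Benjamini-Hochberg adjusted p under 0.05 over 11073 tested genes. The difference of cold responses was the interaction contrast. SE is the absolute log2 fold change divided by the square root of F, and CPM use TMM-scaled totals. The control totals of 1570684 to 2016178 counts leave genes of a few CPM with a handful of counts each, and intervals on counts cover counting error only. No library was a repeat of another: within groups, chi-square over its degrees of freedom was 4.45 to 7.19 between libraries. The test was tested on simulated data, in 5 draws with 200 changed genes each. It called 11.3% of 1.5-fold, 50.3% of 2-fold and 92.3% of 4-fold changes, and 3.98% of its calls were false. A gene that did not pass may therefore still have changed by such an amount. In the draws both RT libraries had the same expected levels and the spread came from the fit. RT 1 and RT 2 differed as described above, and far more than 200 genes were called, so these rates may not hold here. Gene lists and members were chosen with earlier results of these data known. Named genes were Stim1, Stim2 and Ucp1, the 15 largest rises and falls among called genes with a mean of at least 5 CPM, no overlap between groups and a call without RT 1, anchor genes and up to 6 called members of each list, and the 10 smallest p-values of the difference; the text gives part of these. Fam117a, Marcks and Slc39a14 come from the last of these groups. Alternatives were RLE scaling, DESeq2 1.42.0, no filter, a minimum count of 30, control libraries alone, a replicate block, a muscle RNA covariate, removal of muscle genes, a 2-fold threshold and leaving out each library. Promoter windows (RefSeq, GRCm38.p6) matched 8392 of 11073 tested genes (75.8%), under the share needed to compare gene sets, so no such comparison was made.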

Additional observations from a re-analysis of the deposited data

Results flagged for a closer look

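In 10 of 184 genes examined, 1 of the 4 cold libraries stood apart from the other three by Dixon's criterion, which chance meets in about 1 of 20 groups. Cold 3 was high for the β1-adrenergic receptor gene Adrb1 (146 CPM) and for Klhdc7a (22.3 CPM), and low for Sik1 (47.1 CPM) and the metallothionein gene Mt1 (663 CPM). Cold 4 was high for Rtp4 (15.5 CPM), Cars2 (871 CPM) and Fam117a (632 CPM), and low for Scd1 (4192 CPM) and Cenpa (0.706 CPM). Cold 2 was high for Mfsd12 (3.71 CPM).

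The cold responses of control and KO brown fat differed in edgeR's interaction test for 2 genes. The chaperone gene Hspa4l rose by 1.94 log2 more in control (adjusted p = 0.0210), and the convertase gene Pcsk6 by 1.65 log2 more (adjusted p = 0.0269). With control RT 1 left out the adjusted p-values were 0.114 and 0.153.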

How the results depend on the processing

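The count of called genes stayed within 1.5 times 2793 with RLE scaling, DESeq2, no filter, the stricter filter, the muscle covariate and muscle genes removed. It was 1685 (819 higher, 866 lower) with control libraries alone and 1381 with a 2-fold threshold. Over single libraries left out it ranged from 1067 to 2821 (529 to 1414 higher, 538 to 1407 lower), the lowest without RT 1. The difference of responses, 2 genes, came to 25 with DESeq2, 133 with no filter and 0 to 4 with single libraries left out. Of 35 lists, 28 had a larger called share than all genes. The lists had been chosen with earlier results of these data known, so this count is not independent of them. Of the genes named here, 166 were called with all libraries. Part of them were picked by a call without RT 1 or a small p. The number called with libraries left out is therefore no test of how stable the calls are.

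Deviations of same-numbered control libraries from their group means had r = -0.0966 and 0.0184 (2 pairs). With 2 RT libraries these deviations mirror each other, so the values cannot decide whether the replicate numbers pair the samples. With the replicate block, 2122 genes were called (1086 higher, 1036 lower) and 0 differences. The block also turned Ddit3 (0.019 log2) and ended the calls of Fos (edgeR adjusted p = 0.0729), Per2 (0.108), Acta1 (0.0746), Ckm (0.102) and Tnnt3 (0.0931), and Hspa1b was called lower (-1.88 log2; 0.0433).

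Reversed log2 changes were, with the muscle covariate, Acta1 (0.48), Ckm (1.27), Myh4 (1.32) and Tnnt3 (0.94). Over single libraries left out, the log2 change turned sign for Acta1 (-4.71 to 1.59), Ckm (-4.66 to 3.45), Myh4 (-4.42 to 2.56), Tnnt3 (-4.43 to 1.29), Nr4a1 (-0.38 to 2.64) and Nr4a3 (-0.40 to 3.96), which turned without RT 1, and for Hspa1b (-1.78 to 2.08), Adrb1 (-0.55 to 0.046) and Ddit3 (-0.61 to 0.19), the first 2 turning without RT 2 and Ddit3 without RT 2 or cold 3. Adrb3 was lost with control libraries alone (edgeR adjusted p = 0.0506) and with the muscle covariate (0.0907). DESeq2 did not call Acta1 (0.203), Ckm (0.295) and Tnnt3 (0.246). Per2 was lost with DESeq2 (0.0841) and with control libraries alone (0.0544). With control libraries alone the genes called higher were 7 in the proteasome list, 5 in ribosome assembly and 3 in the clock list, in place of 16, 10 and 7. The cause was not tested. Without RT 1, with 1 RT library left, fewer of the 184 named genes were called, although part of them had been picked by a call in that fit. Genes under about 5 CPM rest on few counts, where differences may not have been detectable.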

Other observations

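Genes of lysosomes and autophagy rose in part: 7 of 24 tested were higher and 0 lower, with a median log2 change of 0.25, and 5 were higher without RT 1. Gabarapl1, which binds autophagosome membranes, stood at 169 and 193 CPM at RT and 604, 416, 381 and 590.1 CPM in the cold (1.46 ± 0.18; edgeR adjusted p = 4.22e-05). The lysosomal membrane proteins Lamp2 (1.07 ± 0.14) and Lamp1 (0.54 ± 0.11) and the proton pump subunit Atp6v1a (0.81 ± 0.13) rose by less. In KO brown fat 7 of the 24 were higher and 0 lower.

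Of 26 genes of glutathione and NRF2, 9 rose and 1 fell, with a median of 0.25, and 5 and 0 passed without RT 1. The heme oxygenase gene Hmox1, which breaks down heme, stood at 5.52 and 14.5 CPM at RT and 88.7, 90.2, 50.8 and 204 CPM in the cold, a rise of 3.48 ± 0.61 (edgeR adjusted p = 0.000711), and 2.88 without RT 1 and 4.28 without RT 2. The metal-binding metallothionein gene Mt1 stood at 428 and 402 CPM at RT and 1262, 1289, 663 and 1190.1 CPM in the cold (1.41 ± 0.25; edgeR adjusted p = 0.000908). For both genes every cold value lay above both RT values.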
